A study of Homo sapiens with 6 samples.

Results

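The 258 genes described here carry a symbol of the form LINC plus digits, the standing name for long intergenic noncoding RNA genes without a functional name, and had at least 100 counts summed over the 6 libraries. They came from 973 such symbols among the 25071 genes of the deposited count table; 715 fell below the minimum. All 258 were among the 15816 genes tested. The summed count chose them, so their presence and their level are a description and not a finding. The difference between the groups was not itself used in the choice. A gene could still pass through the counts of a single group, as LINC00656 did with 378 counts with ARD1 and 8 with control vector. The largest changes among genes of few counts are therefore not independent of the minimum. Just inside the minimum were LINC02212 with 101 counts and LINC02861 with 102 counts, and just outside it LINC02405 and LINC02897 with 99 counts each.

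RNA was sequenced from PLC/PRF/5, a human hepatoma cell line. The 3 libraries of the ARD1 group came from cells transfected with a plasmid that overexpresses ARD1, also called NAA10, the catalytic subunit of the main amino-terminal acetyltransferase complex of the cytosol. The 3 libraries of the control group came from cells of the same line transfected with a control vector, and both groups were harvested after 48 hours. Ribosomal RNA was depleted, so transcripts without a poly(A) tail were not selected against, and no age, dose or second line was part of the comparison. Nothing in the labels ties the 3 libraries of a group to separate cultures; p-values here reflect library-to-library spread, and that spread may be technical.

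NAA10 had 355, 400 and 294 CPM (counts scaled to the size of the library) in the ARD1 libraries, against 35.6, 32.2 and 36.2 CPM in the control libraries. The log2 fold change was 3.34 ± 0.11 (standard error, SE), and the groups did not overlap. Library totals lay between 21857327 and 25011357 counts, and 3 counts corresponded to 0.112 to 0.143 CPM. Of the hepatocyte and hepatoma markers, 7 of 11 reached 1 CPM in each group, with a summed level of 1972 to 2042 CPM in ARD1 libraries and 3441 to 4215 CPM in control libraries. The 6 endothelial markers summed to 90.2 to 103 CPM in ARD1 libraries and 70.0 to 82.7 CPM in control libraries, but the sum covers changes in both directions: CDH5 averaged 0.0677 CPM with ARD1 and 33.1 CPM with control vector, while KDR averaged 35.3 CPM with ARD1 and 8.53 CPM with control vector, PECAM1 57.7 CPM with ARD1 and 32.7 CPM with control vector, and VWF 1.40 CPM with ARD1 and 0.0299 CPM with control vector. Fibroblast markers, 6 in number, summed to 17.6 to 20.2 CPM in ARD1 libraries and 78 to 98.6 CPM in control libraries. Of the 5 tested, 2 were lower and 1 was higher. LUM averaged 14.8 CPM with ARD1 and 59.8 CPM with control vector, and COL3A1 1.03 CPM with ARD1 and 28.2 CPM with control vector. COL1A1 was higher, with 1.67 CPM with ARD1 and 0.565 CPM with control vector. The 6 immune markers summed to 5.52 to 6.26 CPM with ARD1 and 14.5 to 15.6 CPM with control vector, and the 2 epithelial markers to 10.3 to 12.9 CPM with ARD1 and 36.5 to 43.4 CPM with control vector. TTR had no count in the ARD1 libraries and GPC3 none in the control libraries. The part of these differences in the results on LINC genes was not tested, and in bulk RNA a change in the number of cells of one kind and a change in RNA per cell cannot be told apart. Control library 1 stood apart: its counts differed from those of the other controls by a chi-square of 17.1 and 19.9 per degree of freedom, against 2.95 between the other controls and 2.49 to 4.35 between ARD1 libraries.

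Long intergenic noncoding RNAs are transcribed by RNA polymerase II from their own promoters outside protein-coding genes, and most are spliced and capped. Many remain in the nucleus and are present at low levels, and they are known for expression that differs between tissues more than that of coding genes. Some act on chromatin or as scaffolds for proteins, some affect a neighbouring gene through the act of transcription, and for most LINC symbols no role has been established. In liver tumours, individual members such as LINC00662, LINC00205 and LINC00511 have been studied as transcripts raised in the tumour.

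The promoters of 4 LINC genes whose changes are given further on are shown because they bring together the letters of motifs searched in all promoters. They were chosen after the values were seen, from RefSeq (GRCh38.p14), each running from 250 bases before to 50 bases after the annotated start. Promoters of other large rises, those of LINC00656, LINC01564 and LINC02908, held none of the motifs searched. LINC02709 (chr11:9759484-9759783, minus strand) and LINC02185 (chr16:14015969-14016268, minus strand) are from rises, and LINC02404 (chr12:91876878-91877177, plus strand) and LINC00607 (chr2:215843487-215843786, minus strand) are from falls. All are written 5′ to 3′ along the gene, and capitals mark any match, on either strand, to one of the motifs.
LINC02709: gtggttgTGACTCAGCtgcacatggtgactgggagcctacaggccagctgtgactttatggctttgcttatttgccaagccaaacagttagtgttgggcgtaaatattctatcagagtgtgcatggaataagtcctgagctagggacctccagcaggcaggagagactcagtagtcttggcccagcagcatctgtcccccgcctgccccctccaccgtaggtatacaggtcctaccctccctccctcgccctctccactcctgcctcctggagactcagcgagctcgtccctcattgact
LINC02185: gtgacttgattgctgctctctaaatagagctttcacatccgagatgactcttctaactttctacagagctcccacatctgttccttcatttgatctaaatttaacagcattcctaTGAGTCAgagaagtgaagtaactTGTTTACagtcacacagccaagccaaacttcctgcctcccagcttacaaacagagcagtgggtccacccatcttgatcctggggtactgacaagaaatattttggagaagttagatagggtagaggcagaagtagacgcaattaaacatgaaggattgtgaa
LINC02404: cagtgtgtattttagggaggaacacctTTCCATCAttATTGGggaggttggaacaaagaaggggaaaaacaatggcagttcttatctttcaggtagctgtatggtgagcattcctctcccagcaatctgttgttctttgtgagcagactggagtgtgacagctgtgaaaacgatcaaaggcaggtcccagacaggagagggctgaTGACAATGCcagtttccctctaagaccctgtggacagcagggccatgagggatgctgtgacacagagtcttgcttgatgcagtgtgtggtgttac
LINC00607: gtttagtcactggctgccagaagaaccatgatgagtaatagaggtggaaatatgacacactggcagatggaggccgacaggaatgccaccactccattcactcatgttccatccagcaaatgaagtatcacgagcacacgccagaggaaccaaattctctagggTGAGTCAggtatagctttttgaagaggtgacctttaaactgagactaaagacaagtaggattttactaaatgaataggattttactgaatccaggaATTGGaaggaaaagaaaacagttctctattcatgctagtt
The first of them holds TGACTCAGC, which matches both the AP-1 letters TGANTCA and the antioxidant response element letters TGACNNNGC. LINC02185 and LINC00607 each hold the AP-1 letters as TGAGTCA, LINC02185 also holds the FOXA letters TGTTTAC, and LINC00607 holds the CCAAT box as its reverse complement. LINC02404 holds TGACAATGC, a match to the antioxidant response element letters, beside a reverse match to the composite CEBP-ATF letters TGATGNAA and a reverse CCAAT box. Of the 258 genes, 161 had a RefSeq promoter. The AP-1 letters stood in 13.7% of these, against 7.71% of all 35116 RefSeq promoters, in 9 of 46 promoters of LINC genes that were higher and in 5 of 46 of those that were lower. The antioxidant response element letters stood in 20.5% against 13.3%, in 12 of 46 higher and 12 of 46 lower. The FOXA letters stood in 7.45% against 3.42%, the CRE letters TGACGTCA in 3.73% against 1.85%, the CCAAT box in 41.0% against 34.6%, and the GC box GGGCGG in 39.1% against 45%. The CEBP-ATF letters stood in 3.11% against 3.62%, the hypoxia response letters ACGTG in 28.6% against 21.4%, the E-box CACGTG, which contains them, in 7.45% against 7.26%, and the TATA box TATAAA in 11.2% against 11.5%. The hypoxia response letters were in 12 of the 46 higher and 16 of the 46 lower promoters. The median GC content was 57.7% in the promoters of higher genes and 54.3% in those of lower genes, against 58.7% in all promoters. These matches are letters only and were not tested.

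In the comparison of ARD1 with control libraries, 66 of the 258 LINC genes were higher and 78 were lower at an adjusted p under 0.05 (edgeR quasi-likelihood test, Benjamini-Hochberg over all genes tested), and 114 did not pass. That is 25.6% higher and 30.2% lower, where 32.4% of all genes tested were higher, 32.2% lower and 64.6% either. The share of LINC genes called was thus below that of all genes. The median log2 fold change was 0.017 over the LINC genes, with quartiles of -0.77 and 0.51, and 0.031 over all genes, with quartiles of -0.49 and 0.49. LINC genes therefore had the wider spread, and their median standard error was also larger, 0.243 against 0.111. Their median count sum was 301, against 2687.5 for all genes. With library totals in place of scaling factors, 90 LINC genes were higher and 59 lower, so 60.4% of those called were higher, against 45.8% with scaling. All genes shifted by about as much, with 48.1% higher and 22% lower and a median log2 fold change of 0.30, beside a median of 0.28 over LINC genes.

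**Figure D1:**
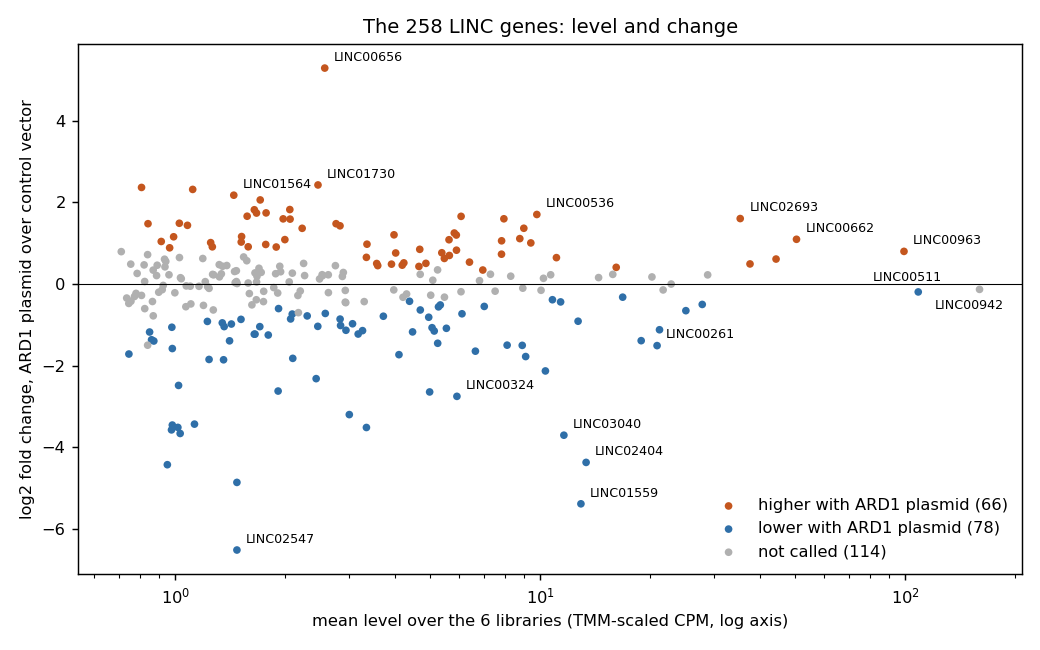
Mean level over the 6 libraries (CPM, log axis) and log2 fold change of ARD1 plasmid over control vector for each of the 258 LINC genes, with 66 higher, 78 lower and 114 not called. The extremes, 5.29 for LINC00656 and -6.52 for LINC02547, lie among genes under 3 CPM, and LINC00942, with the highest level, was not called.

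A change of at least 2-fold together with the adjusted p was met by 38 of the 258 LINC genes that were higher and 52 that were lower. Among all 15816 genes tested, 1536 (9.71%) were higher and 1870 (11.8%) lower by that rule, 21.5% in all. LINC genes thus met it more often than all genes. From 100 to under 200 counts, 8 of 80 LINC genes were higher and 19 lower by it, against 269 and 261 of 1416 genes. With 1000 counts or more, 8 of 45 LINC genes were higher and 10 lower, against 514 and 911 of 10317 genes. These differences were not tested. The CPM of the ARD1 libraries and of the control libraries did not overlap for 164 of the 258, which is 63.6%, against 69.6% of all genes. For 143 of the 258 the libraries did not overlap and the adjusted p passed as well, against 10001 of all 15816 genes (63.2%). LINC02492 was the one called LINC gene whose libraries overlapped, and it is named after its values were seen.

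The number of calls moved with the number of counts. From 100 to under 200 counts there were 80 LINC genes, of which 10 were higher and 22 lower, while of 1416 genes of any kind in that range 348 were higher and 317 lower. The next 86 LINC genes, with under 500 counts, gave 22 higher and 22 lower. The 47 with 500 to under 1000 counts gave 20 higher and 17 lower, and the 45 with 1000 counts or more gave 14 higher and 17 lower. In these ranges, from low to high counts, 40%, 51.2%, 78.7% and 68.9% of LINC genes were called, beside 47.0%, 58.4%, 65.7% and 70.8% of all genes with as many counts. The share called among LINC genes was under that of all genes in 3 of the 4 ranges and above it from 500 to under 1000 counts, and these differences were not tested.

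The LINC genes together took 0.171%, 0.167% and 0.167% of all counts in the ARD1 libraries, against 0.136%, 0.146% and 0.149% in the control libraries. After scaling, their summed level was 1568, 1526 and 1523 CPM in ARD1 libraries and 1549, 1578 and 1600 CPM in control libraries. Every ARD1 library was therefore above every control in the share of counts, while the groups overlapped in the summed level after scaling. Counting every LINC symbol in the table, 710, 730 and 727 had a count in the ARD1 libraries, against 680, 705 and 697 in the control libraries. Genes of any kind with a count were also more numerous with ARD1, at 21923, 21893 and 22053, against 21068, 21252 and 21343 with control vector. The shift was therefore not particular to LINC symbols.

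Other noncoding classes, grouped by symbol, did not all split as the LINC genes did. Of 226 divergent transcripts (-DT), which start beside a coding gene and run away from it, 85 were higher and 27 lower (median log2 fold change 0.46). Of 523 antisense genes (-AS), 169 were higher and 95 lower, with a median of 0.22. As shares, 37.6% of divergent and 32.3% of antisense transcripts were higher, against 32.4% of all genes, and 11.9% and 18.2% were lower, against 32.2% of all genes, so antisense genes stood apart in the share that was lower and not in the share that was higher. MicroRNA host genes gave 7 higher and 9 lower of 26, and small nucleolar RNA host genes 6 higher and 5 lower of 23. Of 6 intronic transcripts (-IT), 1 was higher and 1 lower. The 115 tested genes with a LINC number among their synonyms but another symbol gave 41 higher and 30 lower, with a median of 0.06. That set was taken from synonyms and is not a noncoding class, since it holds coding genes such as AGO2 and SUCLA2. Nor are all of its genes renamed LINC genes: KMT2E-AS1 is in it under LINC01004, which is the symbol of another gene described here. Of 88 tested LINC genes under 100 counts, 19 were higher and 18 lower. The differences between the classes were not tested. A directional kit was used and the strand setting of the counting is not given in the sources used here, so reads of an antisense or divergent transcript and of its partner on the other strand cannot be told apart where they overlap.

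**Figure D2:**
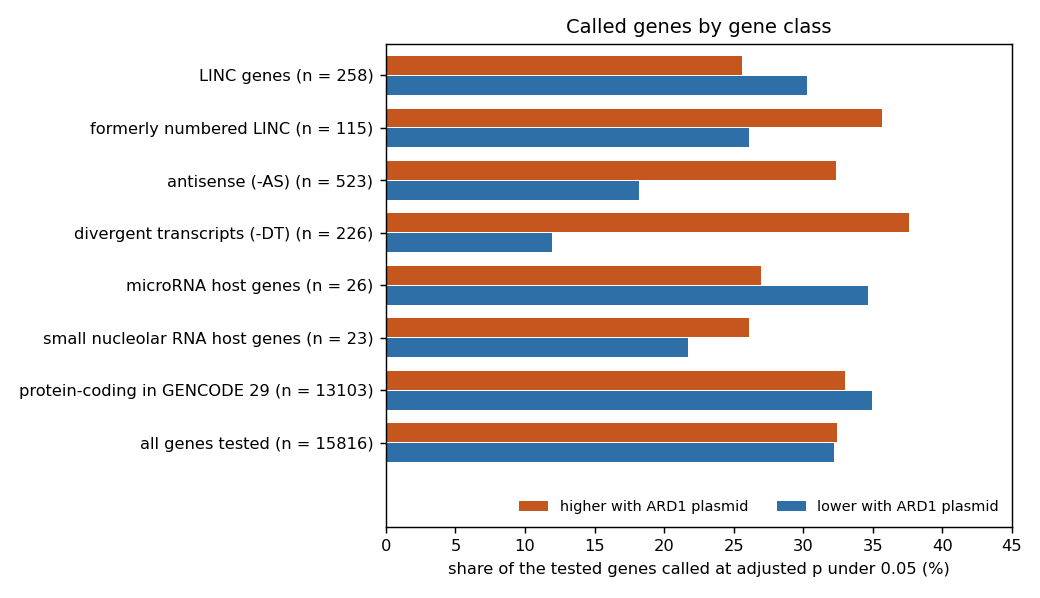
Share of the tested genes of each class that were higher (orange) or lower (blue) with ARD1 plasmid than with control vector at an adjusted p under 0.05. Noncoding classes are named by symbol, and the formerly numbered LINC set, taken from synonyms, also holds protein-coding genes. LINC genes had 25.6% higher and 30.2% lower, divergent transcripts 37.6% higher and 11.9% lower.

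LINC00656 (chr20:23125068-23132621, minus strand, GENCODE 29 on GRCh38, 4 exons) had the largest rise. It had 5.31, 5.29 and 4.43 CPM in the ARD1 libraries, against 0.273, 0.0950 and 0 CPM in the control libraries. The control values were 6, 2 and 0 counts, so the gene was near the detection limit there and the groups lay far apart. The log2 fold change was 5.29 ± 0.41 (SE, adjusted p = 3.42e-08, edgeR quasi-likelihood test). LINC01484, LINC02693 and LINC00963 followed its pattern most closely among the LINC genes, with Pearson correlations of log2 CPM over the 6 libraries of 0.999, 0.999 and 0.996, values that mainly carry the difference between the groups.

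LINC01730 (chr20:3808357-3812434, plus strand) had 4.81, 3.94 and 3.71 CPM in the ARD1 libraries, against 0.591, 0.903 and 0.808 CPM in the control libraries. Its log2 fold change was 2.43 ± 0.24 (edgeR adjusted p = 5.97e-07), with no overlap, and 25.1% of its exon bases are shared with another gene on the same strand, so part of its count may be assigned to either. LINC02185 had 0.921, 1.42 and 1.73 CPM with ARD1 and 0.182, 0.0950 and 0.494 CPM with control vector, a log2 fold change of 2.37 ± 0.47 (edgeR adjusted p = 0.000445). The groups of LINC02185 did not overlap, but its ARD1 libraries ranged more widely than the gap between its lowest ARD1 library and its highest control. LINC02228 had 2.09, 1.84 and 1.65 CPM with ARD1, against 0.182, 0.618 and 0.314 CPM with control vector (log2 fold change 2.32). All of its ARD1 libraries were above all of its controls.

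LINC01564 (chr6:53628380-53631394, plus strand, 3 exons) had 1.72, 2.14 and 3.26 CPM in the ARD1 libraries, against 0.364, 0.523 and 0.673 CPM in the control libraries, without overlap. Its log2 fold change was 2.18 ± 0.34 (edgeR adjusted p = 5.53e-05). LINC02709 had 2.72, 3.26 and 2.30 CPM with ARD1 and 0.819, 0.570 and 0.584 CPM with control vector (log2 fold change 2.06 ± 0.28), again with every ARD1 library above every control. This is the gene whose promoter holds the joined AP-1 and antioxidant response element letters. LINC00899 had 3.72, 3.22 and 2.7 CPM with ARD1 and 1.05, 0.808 and 0.853 CPM with control vector (log2 fold change 1.83), also without overlap.

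The 5 other genes among the 12 largest rises had log2 fold changes between 1.66 and 1.82. LINC02908 (chr9:137027464-137037957, plus strand) had 2.72, 2.14 and 2.86 CPM with ARD1 and 0.864, 0.713 and 0.718 CPM with control vector, a log2 fold change of 1.74 ± 0.26 (edgeR adjusted p = 3.54e-05). LINC00536, on chromosome 8, was the best counted of the 12, with 15.8, 14.2 and 14.9 CPM in the ARD1 libraries and 3.91, 4.37 and 5.48 CPM in the control libraries (log2 fold change 1.70). LINC02980, LINC01341 and LINC01607 had log2 fold changes of 1.82, 1.74 and 1.66. None of the 5 had overlapping groups, as the rule for these 12 required.

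LINC02547 (chr11:12030875-12061785, plus strand, 2 exons) had the largest fall. It had 0, 0.0375 and 0.0403 CPM in the ARD1 libraries, which is 2 counts in all, against 2.82, 2.90 and 3.05 CPM and 191 counts in the control libraries. The level was lower by a ratio of 110 with ARD1, with an exact 95% counting interval of 30.1 to 917, which covers counting error only. The fitted log2 fold change of -6.52 depends on the prior count. Across the 6 libraries LINC01559, LINC01978 and LINC03040 followed its pattern most closely, with Pearson correlations of 0.999, 0.998 and 0.998.

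LINC01559 (chr12:13371089-13387167, minus strand, 6 exons) had 0.377, 0.675 and 0.725 CPM in the ARD1 libraries, against 22.5, 27.9 and 25.3 CPM in the control libraries. The log2 fold change was -5.39 ± 0.18 (edgeR adjusted p = 5.97e-12), and the lowest control was far above the highest ARD1 library. LINC02404 (chr12:91877391-91880655, plus strand) had 1.13, 0.862 and 1.69 CPM with ARD1 and 23.7, 26.7 and 26.1 CPM with control vector (log2 fold change -4.38 ± 0.17). LINC03040, annotated as protein-coding in GENCODE 29, had 1.63, 1.65 and 1.65 CPM with ARD1 and 23.9, 20.9 and 19.9 CPM with control vector (log2 fold change -3.71 ± 0.14). These genes were well counted in the control libraries, and in each of them the groups lay apart by several times the spread within a group.

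LINC00607, a gene that has been described in human endothelial cells (chr2:215611563-215843722, minus strand, up to 16 exons), had 0.628, 0.487 and 0.483 CPM with ARD1, against 4.82, 6.65 and 6.96 CPM with control vector. Its log2 fold change was -3.52 ± 0.24 (edgeR adjusted p = 1.10e-08), and no ARD1 library reached the lowest control. LINC01929 had 0.0418, 0.112 and 0.121 CPM with ARD1 and 1.82, 3.61 and 3.14 CPM with control vector (log2 fold change -4.87). LINC02038 had 0.0418, 0.150 and 0.0403 CPM with ARD1 and 1.59, 2 and 1.89 CPM with control vector (log2 fold change -4.43). Both had 1 to 4 counts in each ARD1 library, so the size of their fall is poorly fixed. That every ARD1 library lay below every control was required by the rule for these 12. The 5 others of the 12, LINC01252, LINC02019, LINC02015, LINC00326 and LINC02236, had fitted log2 fold changes of -3.67, -3.58, -3.52, -3.46 and -3.44, with 0.0418 to 0.293 CPM in the ARD1 libraries and 1.36 to 2.42 CPM in the control libraries.

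**Figure D3:**
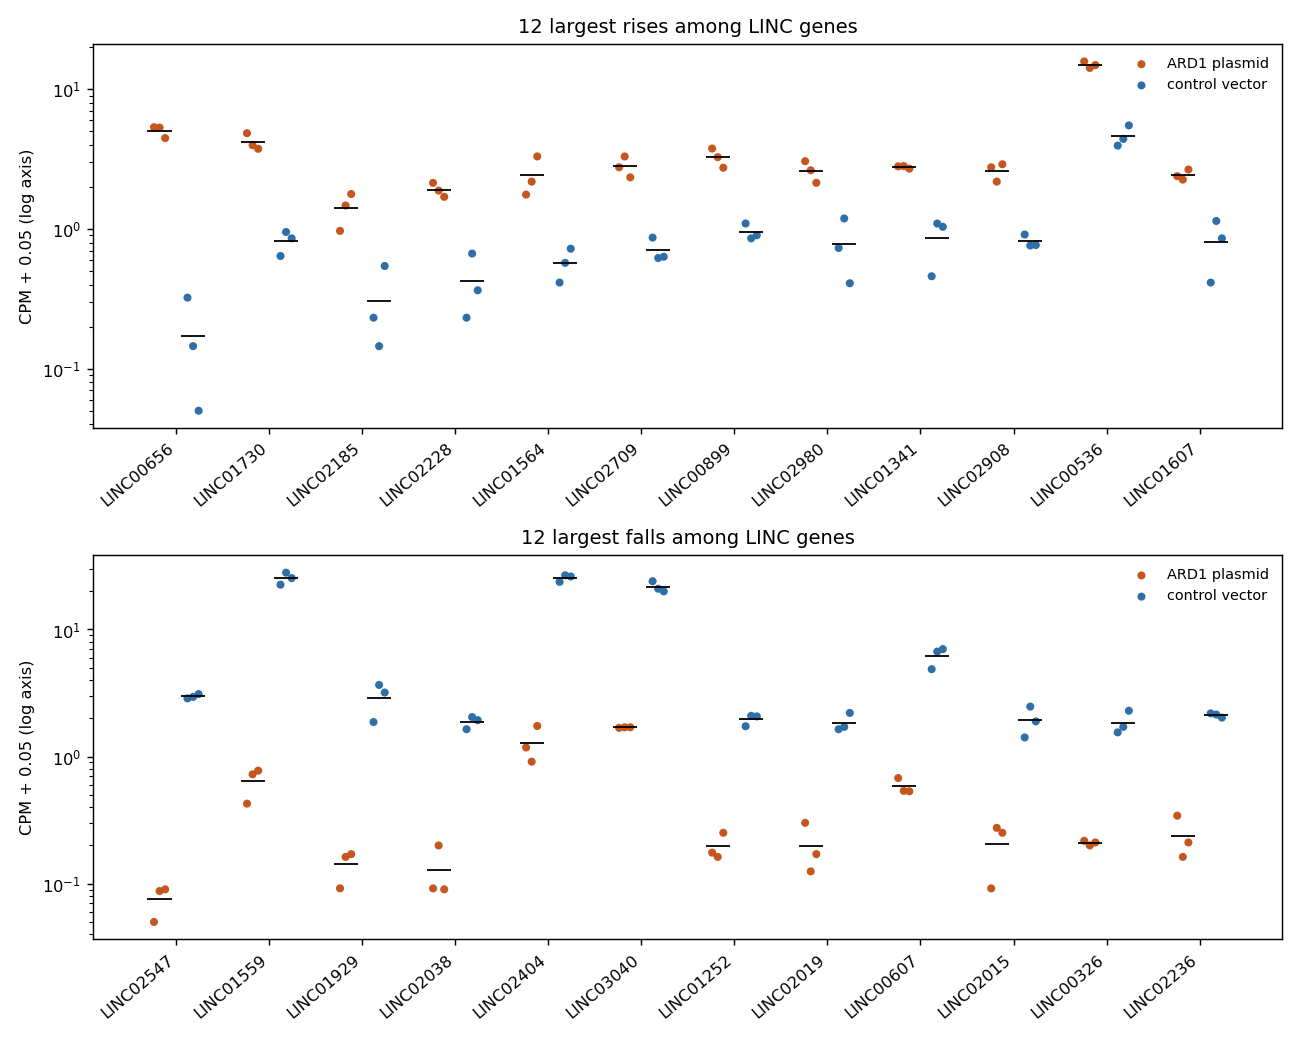
CPM plus 0.05 (log axis) in each ARD1 plasmid library (orange, left) and each control vector library (blue, right) for the 12 largest rises and the 12 largest falls among LINC genes whose libraries did not overlap, with a bar at the mean. LINC01559, LINC02404 and LINC03040 stood above 19 CPM in every control library and below 2 CPM in every ARD1 library.

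Levels per length were highest for LINC00942, LINC00511 and LINC00662, with means over the 6 libraries of 72.3, 28.8 and 20.3 CPM per kb of the longest transcript. LINC00942 had 162, 151 and 144 CPM in the ARD1 libraries, against 186, 163 and 151 CPM in the control libraries. The groups overlapped, and the log2 fold change of -0.13 ± 0.08 did not pass (edgeR adjusted p = 0.173). LINC00662 had 72.4, 64.2 and 69.2 CPM with ARD1 and 27.0, 31.9 and 37.3 CPM with control vector, a log2 fold change of 1.10 ± 0.11 (edgeR adjusted p = 3.60e-07), with no overlap. LINC00511 had 104, 99.4 and 99.7 CPM with ARD1 and 126, 107 and 115 CPM with control vector. Its log2 fold change of -0.19 (edgeR adjusted p = 0.0343) did not pass when any one of the ARD1 libraries was left out, with adjusted p of 0.0678, 0.113 and 0.127, and with library totals it was 0.072.

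LINC00963, described first in prostate cancer cells, had 131, 122 and 125 CPM in the ARD1 libraries, against 77.1, 72.1 and 67.9 CPM in the control libraries. LINC00963 had a log2 fold change of 0.80 ± 0.07 (edgeR adjusted p = 2.58e-07), and each ARD1 library was well above each control. LINC01503, also on chromosome 9, had 4.27, 3.30 and 4.79 CPM with ARD1 and 16.8, 11.5 and 14.0 CPM with control vector, a log2 fold change of -1.78 ± 0.17 without overlap. LINC03060 had 9.04, 8.59 and 8.78 CPM with ARD1 and 15.8, 17.1 and 16.8 CPM with control vector (log2 fold change -0.91), also apart. LINC01116, which lies beside the HOXD cluster, had 23.1, 22 and 23.4 CPM with ARD1 and 21.3, 21.7 and 25.5 CPM with control vector, with overlap and a log2 fold change of -0.0014 (standard error 0.0970) that became 0.26 with library totals. LINC01004 and LINC00958 had log2 fold changes of 0.24 each that did not pass (edgeR adjusted p = 0.220 and 0.0773). Of these 10 genes 2 were higher, 4 were lower and 4 did not pass, so 6 were called, in a comparison where 64.6% of all genes were.

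Outside the rule for named genes, and chosen after the values were seen, LINC02693 was well counted and higher. It had 52.0, 55.8 and 51.5 CPM in the ARD1 libraries, against 19.3, 17.7 and 15.4 CPM in the control libraries, a log2 fold change of 1.60 ± 0.10 (edgeR adjusted p = 2.24e-09). The groups lay apart by many times their spread. GENCODE 29 annotates this gene as protein-coding. Another annotated exception, the read-through LINC02210-CRHR1, shares 97.3% of its exon bases with CRHR1 on the same strand, so its count cannot be assigned to either.

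Few LINC genes enriched in liver were counted. Of 12 listed genes, 7 were in the table, and LINC00261 and LINC01348 alone reached 100 counts. Both were lower with ARD1, in a comparison where 32.2% of all genes were lower, and 2 genes are too few for a share. Most exon bases of LINC00261 are shared with another annotated gene on the same strand, so its count may be split between both. LINC00261 had 11.8, 8.85 and 11.9 CPM in the ARD1 libraries, against 30.3, 32.4 and 30.0 CPM in the control libraries, a log2 fold change of -1.51 ± 0.12 (edgeR adjusted p = 3.30e-08). LINC01348 had 2.51, 2.96 and 2.90 CPM with ARD1 and 7.14, 9.65 and 6.24 CPM with control vector, a log2 fold change of -1.45 ± 0.18 (edgeR adjusted p = 6.67e-06). Neither gene had overlapping groups. Of the 8 hepatocyte and hepatoma markers tested, 6 were lower in the same libraries, among them ALB with a mean of 36.3 CPM with ARD1 and 314.9 CPM with control vector, and 2 were higher, SERPINA1 with 2.17 CPM with ARD1 and 0.535 CPM with control vector and APOB with 7.73 CPM with ARD1 and 6.17 CPM with control vector. The part of these markers in the results on LINC00261 and LINC01348 was not tested.

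Of 23 LINC genes listed as studied in cancer cells, 22 were in the table and 18 reached the minimum. LINC00662, LINC00963 and LINC00205 were higher, LINC00324, LINC01503, LINC00665 and LINC00511 were lower, and 11 did not pass. That is 16.7% higher and 22.2% lower, against 32.4% and 32.2% of all genes. Listed genes below the minimum are not in these shares. Of them, LINC02154 (61 counts) and LINC01063 (71 counts) were higher, at 3.92 and 1.80 (edgeR adjusted p = 8.13e-05 and 0.00638). LINC00520 (56 counts) was not called at 0.86 (edgeR adjusted p = 0.142). The median log2 fold change over the 18 was 0.21, beside 0.031 over all genes. LINC00205 had 45.6, 41.2 and 44.8 CPM in the ARD1 libraries, against 30.5, 32.5 and 30.7 CPM in the control libraries (log2 fold change 0.49, edgeR adjusted p = 9.62e-05), with no overlap. LINC00324 had 2.13, 0.937 and 1.53 CPM with ARD1 and 9.96, 9.12 and 11.8 CPM with control vector (log2 fold change -2.76 ± 0.22), and its highest ARD1 library was far below its lowest control. LINC00665 fell by a smaller amount, with a log2 fold change of -0.32 that did not pass without ARD1 library 1 (edgeR adjusted p = 0.0790) or with library totals (0.630). Those that did not pass included LINC00460, LINC00467 and LINC01138, with log2 fold changes of 0.35, 0.19 and 0.16.

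Genes beside the largest changes were followed next, taking for each of the 12 rises and 12 falls the nearest tested gene on either side within 100 kb and any gene it overlaps. The 12 rises gave 24 such pairs, in which the neighbour was higher in 9, lower in 7 and not called in 8, with a median log2 fold change of 0.21. Of the falls, 8 had a neighbour in the window and gave 12 pairs, with the neighbour higher in 5, lower in 5 and not called in 2, and a median of 0.30. Neighbours were called in both directions beside rises and beside falls, in a comparison where 64.6% of all genes were called.

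Next to LINC01564 lies GCLC, the gene of the enzyme subunit that carries out the first step of glutathione synthesis. The genes lie on opposite strands with 11409 bases between them. GCLC is named after its values were seen, since a noncoding gene that overlaps it on the same strand, ENSG00000231683, lies 11208 bases from LINC01564 and is the nearest. GCLC had 185, 184 and 185 CPM in the ARD1 libraries, against 76.8, 83.6 and 86.6 CPM in the control libraries. Both LINC01564 and GCLC were higher without overlap, with log2 fold changes of 2.18 and 1.17 ± 0.07 (edgeR adjusted p for GCLC 2.64e-09). ENSG00000231683 was lower, at -0.71, and KLHL31, on the other side, was not called at 0.32 (edgeR adjusted p = 0.495).

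LINC02908 lies in the terminal gene block of the long arm of chromosome 9, where its direction was opposite to that of its neighbours. Of 16 tested genes within 100 kb, 15 were lower and 1 was higher, and their median log2 fold change was -1.25. ABCA2, a lipid transporter that overlaps LINC02908 on the other strand, had 55.6, 47.6 and 52.3 CPM in the ARD1 libraries, against 458, 404 and 393 CPM in the control libraries (log2 fold change -3.01 ± 0.09). ENTPD2, an enzyme that breaks down extracellular nucleotides, and CLIC3, a chloride channel protein, had log2 fold changes of -3.35 and -5.75. NPDC1, nearest on the other side, had -0.95. Every ARD1 library was below every control for ABCA2 and above every control for LINC02908.

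LINC00899 had a mixed surrounding. WNT7B, a Wnt ligand 62777 bases away, was higher with 11.6, 10.5 and 10.7 CPM in the ARD1 libraries, against 2.77, 2.09 and 1.48 CPM in the control libraries (log2 fold change 2.36). PRR34-AS1 was higher as well, at 1.22, and MIRLET7BHG, the host gene of let-7 microRNAs, was lower at -1.08. WNT7B and MIRLET7BHG were not the nearest genes and are named after their values were seen.

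Around LINC02547, DKK3, a member of the Dickkopf family, was lower, and the genes farther out were higher. DKK3 had 43.6, 42.3 and 41.6 CPM in the ARD1 libraries, against 187, 168 and 164 CPM in the control libraries, a log2 fold change of -2.03 ± 0.08 (edgeR adjusted p = 1.67e-11). The start sites of the pair lie 21106 bases apart on opposite strands, and neither had overlapping groups. MICAL2, an actin-oxidising enzyme on the other side, was higher at 0.50, and USP47, a deubiquitinase that lies beyond DKK3 and is named after its values were seen, was higher at 0.95.

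LINC00324 lies 777 bases from CTC1, a telomere maintenance gene, in a region where most called genes were lower. CTC1 had 9.46, 10.05 and 9.99 CPM in the ARD1 libraries, against 38.0, 34.0 and 31.2 CPM in the control libraries (log2 fold change -1.81 ± 0.10). BORCS6 and AURKB, a mitotic kinase, had log2 fold changes of -1.62 and -0.84. Of 11 tested genes within 100 kb, 1 was higher, 5 were lower and 5 did not pass, so the fall of LINC00324 was shared by its nearest neighbours and not by the whole window.

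LINC00261 and FOXA2 moved in opposite directions. FOXA2, the liver and endoderm transcription factor whose gene lies 2362 bases away, had 101, 100.3 and 92.6 CPM in the ARD1 libraries, against 87.4, 74.4 and 71.3 CPM in the control libraries. FOXA2 had a log2 fold change of 0.33 ± 0.08 (edgeR adjusted p = 0.00293), and the groups did not overlap, while LINC00261 was lower in every ARD1 library. Of the exon bases of LINC00261, 86.1% are shared on the same strand with another annotated gene, so its count may be split between both. FOXA2 and the genes around LINC00324 are named after their values were seen.

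**Figure D4:**
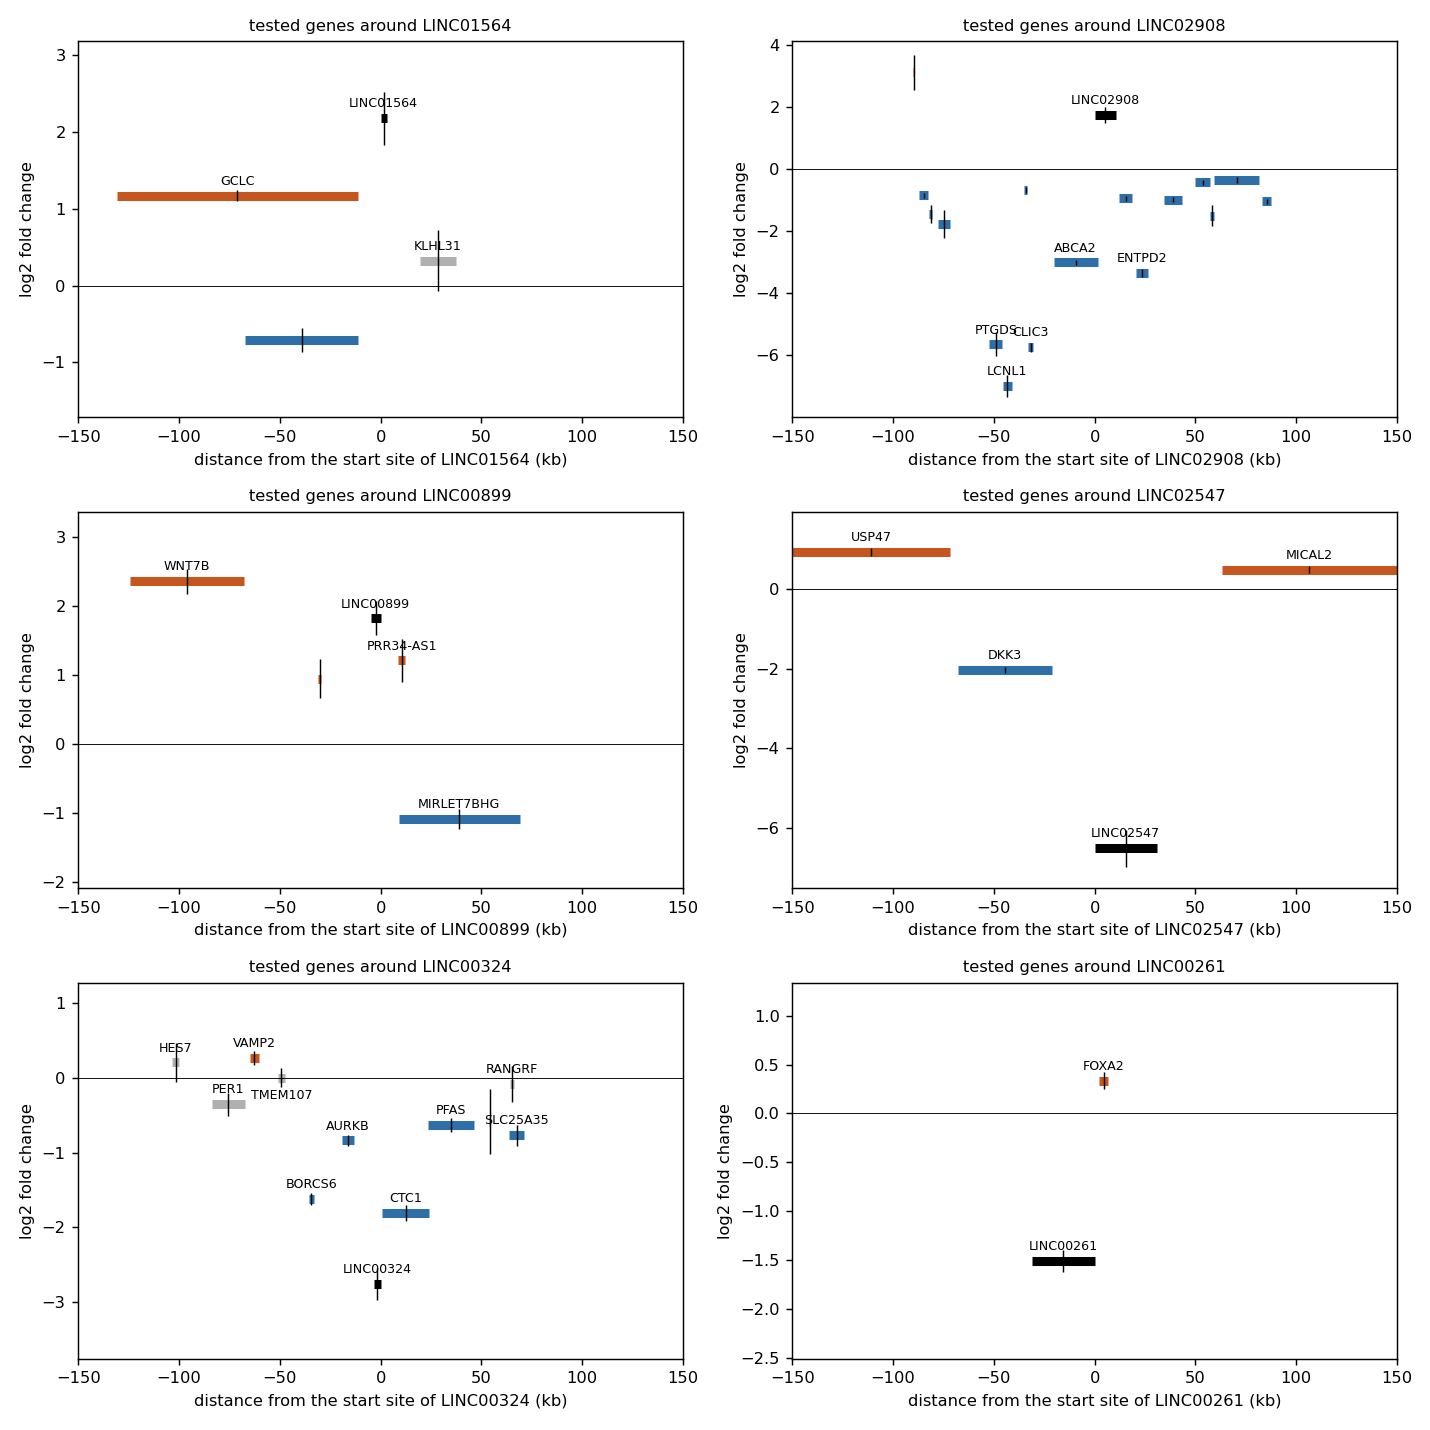
Log2 fold change, ARD1 plasmid over control vector, of the tested genes around 6 LINC genes against the distance from the start site of the LINC gene (kb). Bars span the gene bodies and are cut at the edges of the panels; black bars are the LINC gene, orange higher, blue lower, grey not called, and vertical lines are 1 SE. LINC02908 stands above 15 genes that were lower, and LINC01564 lies beside GCLC, which was higher.

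Other neighbours of the named genes moved in either direction. THBD, thrombomodulin, 75326 bases from LINC00656, had a log2 fold change of -0.74, although LINC00656 had the largest rise. DOCK3, 3192 bases from the fallen LINC02019, was higher at 1.498. TCF4, at the edge of the window of LINC01929, was lower at -2.90, and LINC01614, which lies within LINC00607 on the other strand, was lower at -2.58, as was LINC00607. TCF4 averaged 0.146 CPM with ARD1 and 1.13 CPM with control vector, and LINC01614 0.0908 CPM and 0.583 CPM. TCF4 and LINC01614 were thus near the detection limit with ARD1, and the size of their fall is poorly fixed. HEY1, a Notch target whose start site is 279 bases from that of LINC01607, was lower at -0.34, whereas LINC01607 was higher. With library totals HEY1 had -0.077 and did not pass. SBF2-AS1, which overlaps LINC02709 on the other strand, was higher at 0.53. SWAP70, also beside LINC02709, and ETV6, beside LINC01252, passed narrowly at -0.17 and -0.21, and TRIM38, beside LINC02980, and MRTFB, beside LINC02185, did not pass at -0.014 and 0.058; SWAP70, ETV6 and TRIM38 changed sign with library totals. LINC03060, one of the LINC genes of highest level, lies 9896 bases from AKR1B1, the aldose reductase gene, and both were lower, AKR1B1 with 348, 400 and 335 CPM in the ARD1 libraries, against 2658, 2275 and 2211 CPM in the control libraries.

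Over all LINC genes, 204 had a tested gene within 100 kb. The LINC gene and its nearest neighbour were called in the same direction in 52 pairs and in opposite directions in 30, which is 25.5% and 14.7%. Over all 14215 genes with such a neighbour the shares were 27.0% and 15.6%. Spearman correlations of the log2 fold changes across pairs were 0.28 for LINC genes and 0.22 for all genes, as a description, since pairs on one chromosome are not independent. With protein-coding neighbours only, the LINC genes gave 39 pairs in the same and 35 in opposite directions of 174, which is 22.4% and 20.1%, and a correlation of 0.13. Over all genes with a protein-coding neighbour the shares were 27.6% and 16.6% and the correlation 0.21. The shares of LINC genes thus lay near those of all genes with any neighbour and farther from them with protein-coding neighbours. These shares also depend on how many genes were called. Of the pairs with both genes called, 63.4% had the same direction for LINC genes and 63.3% for all genes with any neighbour. With protein-coding neighbours it was 52.7% and 62.4%. No test of the difference was made.

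Close starts on opposite strands were looked at apart. For 28 LINC genes a tested gene on the other strand started within 1 kb, and because some of these partners are themselves LINC genes, they form 24 distinct pairs. Not all of the pairs are divergent, since some overlap at their starts, among them LINC00662 with LINC02987 and LINC00649 with ATP5PO. As the strand setting of the counting is not given, how reads in such overlaps were assigned is not known. Both genes were called in the same direction in 7 pairs and in opposite directions in 3, the partner alone was called in 9, neither in 5, and the LINC gene alone in 0. The same and opposite directions made up 29.2% and 12.5% of the 24 pairs, beside 27.5% and 13.3% of the 1690 distinct pairs of this kind among all tested genes. With 15 protein-coding partners, 2 pairs had the same direction and 3 opposite directions, while with 9 noncoding partners 5 had the same and 0 opposite directions. Among all tested noncoding genes, 152 of 601 pairs with a protein-coding partner had the same and 73 opposite directions, and 7 and 1 of 26 pairs with a noncoding partner, LINC genes included. Across the 24 pairs the Spearman correlation was 0.50, beside 0.29 over all 1690 pairs, as a description. LINC01770 had a log2 fold change of -2.32 and its partner VWA1, an extracellular matrix protein gene, -1.53. LINC00649 had -1.39 and ATP5PO, an ATP synthase subunit, -0.41, and LINC00882 had 1.48 beside 2.51 for the noncoding DUBR. The opposite pairs were LINC00205 (0.49) with POFUT2 (-0.89), LINC01547 (0.70) with SLX9 (-0.34), and LINC01607 (1.66) with HEY1 (-0.34). Genes of these pairs outside the rule are named after their values were seen.

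**Figure D5:**
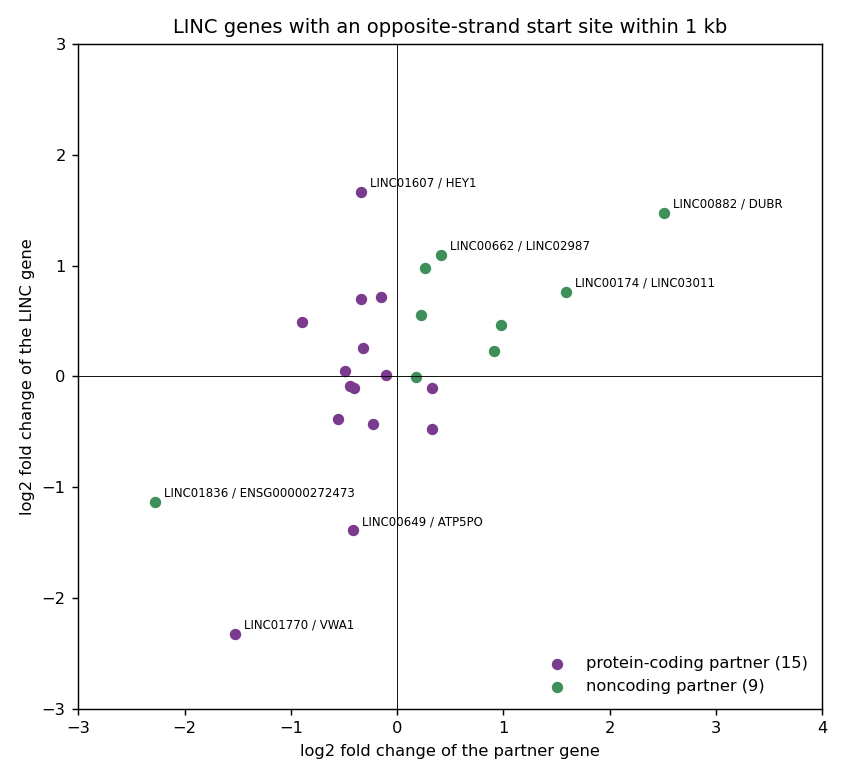
Log2 fold change of the LINC gene (vertical axis) against that of the tested gene that starts within 1 kb on the other strand (horizontal axis), ARD1 plasmid over control vector, for 24 distinct pairs with protein-coding (15, purple) or noncoding (9, green) partners. With noncoding partners 5 pairs were called in the same direction and 0 in opposite directions, and with protein-coding partners 2 and 3, a difference that was not tested.

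Some LINC genes neighbour each other. Within 100 kb there were 16 pairs of LINC genes, of which 7 were called in the same direction and 2 in opposite directions, in 5 a single gene was called and in 2 neither. No share over all genes was taken for pairs of this kind. For nearest neighbours over all genes, an unlike set of pairs, it was 27.0% and 15.6%. The pairs are not all separate loci, since a cluster on chromosome 1 gives several, and some also stand among the close starts on opposite strands. LINC01979 and LINC01978, which overlap on opposite strands of chromosome 17, went apart. LINC01979 had 11.7, 11.6 and 12.6 CPM in the ARD1 libraries, against 4.09, 3.09 and 4.62 CPM in the control libraries (log2 fold change 1.60 ± 0.15), whereas LINC01978 had 4.56, 4.39 and 5.00 CPM with ARD1 and 13.1, 12.9 and 13.6 CPM with control vector (log2 fold change -1.51 ± 0.12). Neither gene had overlapping groups. Because the strand setting of the counting is not given, how reads in their overlap were assigned is not known. Near the start of chromosome 1, LINC01409 and LINC01128 were both higher, with log2 fold changes of 1.01 and 1.06, while LINC02593, 57418 bases from LINC01128, was lower, with 3.68, 3.04 and 4.79 CPM in the ARD1 libraries against 14.7, 18.9 and 16.9 CPM in the control libraries (log2 fold change -2.13). Genes of both loci are named after their values were seen.

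By chromosome, 9 LINC genes on chromosome 20 gave 6 higher and 2 lower, and 11 on chromosome 14 gave 1 higher and 6 lower, with median log2 fold changes of 0.76 and -0.79. Chromosomes 1 and 7 held the most LINC genes, with 5 higher and 6 lower of 28, and 8 higher and 7 lower of 20. Chromosomes 20 and 14 were picked after the values were seen, from 23 chromosomes, and over all chromosomes 32.4% of all genes tested were higher and 32.2% lower. These are counts over few genes and were not tested. Of the higher genes on chromosome 20, LINC01275 and LINC01273 lie 6447 bases apart and LINC01270 and LINC01271 overlap. The higher genes there are therefore not all separate loci. GC content and log2 fold change had a Spearman correlation of 0.056 over 251 LINC genes with an annotated transcript, and of -0.27 over 15238 of all genes, as a description across genes. The LINC genes had a median GC content of 46.6%, a median longest transcript of 1983 bases and a median of 4 exons, against 48.4%, 3352 bases and 10 exons over all genes. Higher, lower and uncalled LINC genes had median transcripts of 2480, 2071 and 1575 bases.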

How the data were processed

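The authors deposited a single table for the 6 libraries that holds raw counts, with Ensembl genes in rows and no normalization. Its lowest row sum was 2. Cutadapt 4.6 and STAR 2.7.11b were used with GRCh38, per the submitters' processing notes. The counter, its strand setting and the annotation release were not given in the sources used here. Of 25071 genes, 25052 matched a symbol, 23129 were in GENCODE 29, and 251 of the 258 LINC genes had coordinates. Groups came from the sample titles.

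Genes were filtered with filterByExpr, scaled by TMM and tested with edgeR 4.0.16 (R 4.3.3; quasi-likelihood, Benjamini-Hochberg over 15816 genes, adjusted p under 0.05). CPM are TMM-scaled. Standard errors are the log2 fold change over the root of F. The procedure was tested on simulated data. Alternatives used DESeq2 1.42.0, limma 3.58.1, other scalings and filters, a replicate block, GC and length offsets, and each library left out.

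The LINC genes and lists were chosen with earlier results of these data known. Named were the 12 largest rises and 12 largest falls among called genes whose groups did not overlap, the 10 highest in CPM per kb, listed genes, those at the minimum, and tested neighbours within 100 kb. Counts carry no molecular identifiers, so intervals cover counting error only. RefSeq promoters are of GRCh38.p14.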

Additional observations from a re-analysis of the deposited data

How the results depend on the processing

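Of 144 called LINC genes, 109 kept their call under 15 refits, all but that with a 1 CPM filter, which drops some of them (53 higher, 56 lower), and none was called in the opposite direction. Over 82 named genes and their neighbours, 55 kept direction and side of the threshold throughout. With library totals LINC00511 became 0.072 (adjusted p = 0.342, edgeR), LINC01116 0.26 (0.0369), SWAP70 0.091, TRIM38 0.25 and ETV6 0.049; with the replicate block and GC offsets together MRTFB became -0.15. The median log2 fold change over LINC genes (0.017) was 0.060 with upper-quartile scaling, 0.28 with library totals, 0.064 with a 1 CPM filter and -0.015 with GC and length offsets, and lay between -0.046 and 0.020 when 1 library was left out. Leaving out 1 library gave 59 to 64 LINC genes higher and 74 to 85 lower. A fold of at least 2 left 3406 of all genes and 38 higher LINC genes. With a minimum of 300 counts 43 of 130 LINC genes were higher, 46 lower and the median was -0.052. With 1000 counts 14 of 45 were higher and 17 lower. The share called at 1000 counts, 68.9%, was above the 64.6% of all genes tested and under the 70.8% of all genes with as many counts. That the share of LINC genes was below that of all genes thus holds for the minimum of 100 counts. The share of LINC genes moving with their nearest neighbour was 33.3% with library totals, beside 34.3% of all genes. The cause of these shifts was not tested. Replicate numbers did not pair the libraries (correlations of deviations 0.02, -0.07 and 0.07 for same-numbered libraries). With the replicate number as a block, 68 LINC genes were higher, 80 lower, with 10293 of all genes called. Depth limits genes near 100 counts most, where a library holds few counts.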
